A study of Mus musculus with 4 samples.

Results

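The neural-enriched miRNAs examined here are 8 mature miRNAs from 7 families: mmu-miR-124-3p, mmu-miR-9-5p, mmu-miR-9-3p, mmu-miR-128-3p, mmu-miR-137-3p, mmu-miR-138-5p, mmu-miR-153-3p and mmu-miR-219a-5p (written below without the species prefix). They were chosen by name, for their known enrichment in brain, and all 8 had a row among the 1907 mature miRNAs of the count tables. They were measured by small RNA sequencing in livers of 15-week-old C57BL/6 mice. The treated mice (libraries TAA 1 and TAA 2) were injected intraperitoneally with 200 mg/kg thioacetamide (TAA), which poisons hepatocytes and is a standard way to make livers fibrotic, 3 times a week over 10 weeks. The other mice (control 1 and control 2) are labelled as controls, and the labels name no injected vehicle for them. The design text calls the 2 libraries of each group biological replicates but names no animals, so p-values measure the spread between these libraries. The libraries held 43836911 (TAA 1), 48878003 (TAA 2), 42609845 (control 1) and 46224018 (control 2) miRNA counts. Levels are given in CPM, which are counts divided by the TMM-scaled library size and multiplied by 1000000; values without TMM factors are called unscaled CPM.

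A mature miRNA is cut from a hairpin precursor, which has a 5p and a 3p arm, and pairs with target mRNAs mainly through its seed, bases 2 to 8. Several brain miRNAs are produced in identical form from more than 1 hairpin, often inside genes that are themselves active in neurons. miR-124 is the most abundant miRNA of neurons, where it holds down non-neuronal mRNAs. miR-9 acts in neural progenitors, and the pair of its arms target the REST repressor complex. miR-128 and miR-137 restrain neuronal excitability and dendrite growth, miR-138 acts at synapses, miR-153 targets mRNAs of vesicle release and synuclein, and miR-219 drives maturation of oligodendrocytes, the myelin-forming glia.

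The mature sequences show what each count row stands for, with the seed in capitals. Sequences were matched for 7 of the 8 and come from RefSeq (GRCm38.p6).
miR-128-3p: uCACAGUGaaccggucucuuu
miR-137-3p: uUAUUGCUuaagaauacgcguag
miR-219a-5p: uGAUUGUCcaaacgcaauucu
miR-138-5p: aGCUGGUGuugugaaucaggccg
miR-9-5p: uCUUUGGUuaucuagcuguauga
miR-9-3p: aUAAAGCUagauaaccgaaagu
miR-153-3p: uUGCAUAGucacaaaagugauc
The 7 seeds were all different, so each miRNA is a seed family of its own. Among the 1623 miRNAs of the count table with a RefSeq sequence, no other miRNA carried any of these 7 seeds.

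The 8 miRNAs fell into separate levels in liver. miR-128-3p, miR-137-3p, miR-219a-5p and miR-138-5p reached at least 1 CPM in every library. miR-9-5p lay around 1 CPM, and miR-124-3p, miR-9-3p and miR-153-3p were at trace level, with 7 reads each over all 4 libraries. Of all 1907 miRNAs, 125 held at least 100 CPM in every library, as 0 of the 8 did. A further 278 of the 1907 held at least 1 CPM in every library, as 4 of the 8 did. None of the 8 reached 100 CPM in any single library. None of the 5 that could be tested passed the test between TAA-treated and control liver.

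**Figure D1:**
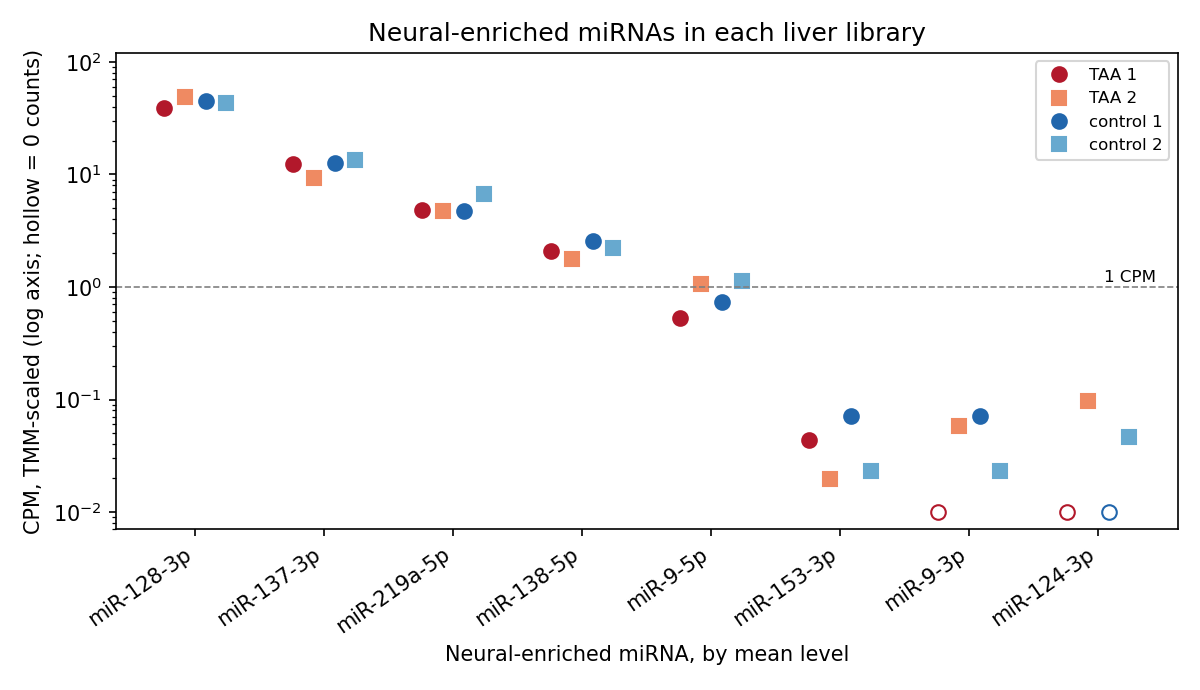
CPM (TMM-scaled, log axis) of the 8 neural-enriched miRNAs in each of the 4 liver libraries, ordered by mean level; hollow points are 0 counts and the dashed line is 1 CPM. The 5 leading miRNAs occupy ranges that do not overlap, from 38.9 to 48.8 CPM for miR-128-3p down to 0.53 to 1.12 CPM for miR-9-5p, and the other 3 stay under 0.1 CPM.

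miR-128-3p was the most abundant of the set. It had 1768 and 2504 reads in the TAA libraries, against 1920 and 1849 in the controls, or 38.9 and 48.8 CPM against 45.4 and 43.3 CPM. The TAA libraries lay on either side of both controls, so the groups overlapped. By counts summed over the libraries it ranked 178 of the 1256 miRNAs detected in any library. It supplied 66.3% and 74.2% of all reads of the 8 miRNAs in TAA-treated liver and 68.4% and 64.7% in control liver. The reads of the 8 together came to 60.8 and 69.0 unscaled CPM in TAA-treated liver and to 65.9 and 61.8 unscaled CPM in control liver.

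miR-137-3p was next, with 559 and 474 reads in the TAA libraries, against 539 and 575 in the controls. These were 12.3 and 9.24 CPM in TAA-treated liver and 12.7 and 13.5 CPM in control liver. Both TAA libraries were below both controls, with TAA 2 the lowest. In unscaled CPM, TAA 1, at 12.75, was above both controls, at 12.65 and 12.4, so the separation depended on the scaling.

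miR-219a-5p had 218 and 242 reads in TAA-treated liver and 202 and 287 in control liver, or 4.80 and 4.72 CPM against 4.77 and 6.71 CPM. The TAA libraries and control 1 lay close together and control 2 was higher. miR-138-5p had 94 and 91 reads in TAA-treated liver and 109 and 94 in control liver, or 2.07 and 1.77 CPM against 2.57 and 2.20 CPM. Both TAA libraries were below both controls in CPM, but in unscaled CPM TAA 1, at 2.14, was above control 2, at 2.03.

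miR-9-5p was read 24 and 54 times in the TAA libraries and 31 and 48 times in the controls. That is 0.53 and 1.05 CPM in TAA-treated liver and 0.73 and 1.12 CPM in control liver. The TAA libraries differed from each other by more than counting error. The 95% Clopper-Pearson interval of the unscaled level was 0.351 to 0.815 CPM in TAA 1 and 0.830 to 1.44 CPM in TAA 2. Reads carried no stated molecular identifiers, so these intervals cover counting error only. The groups overlapped.

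The last 3 miRNAs were at the detection limit. miR-124-3p had 0 reads in TAA 1 and 5 in TAA 2, against 0 in control 1 and 2 in control 2. For a count of 0, the 95% Clopper-Pearson interval reached 0.084 unscaled CPM in TAA 1 and 0.087 unscaled CPM in control 1. miR-153-3p had 2 and 1 reads in TAA-treated liver and 3 and 1 in control liver. miR-9-3p had 0 and 3 reads in TAA-treated liver and 3 and 1 in control liver. Of all detected miRNAs, 26.5% had fewer reads than these 3, whose order cannot be told. The depth does not allow a comparison of the groups for them, and no fold change is given.

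The order of the levels was miR-128-3p, miR-137-3p, miR-219a-5p, miR-138-5p, miR-9-5p and then the 3 trace miRNAs. Their means over the 4 libraries were 44.1, 11.9, 5.25, 2.15 and 0.86 CPM for the 5 leading miRNAs, and 0.036 to 0.039 CPM for the last 3. The ranges over libraries of neighbours among the leading 5 did not overlap. The mature miRNAs are of similar length, 21 to 23 bases for those with a sequence. But read counts of different miRNAs also carry the ligation preferences of the library kit, which were not measured here. All but miR-137-3p and miR-153-3p come from several hairpins, and how reads matching several hairpins were counted is not known.

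Other lists in the same libraries give a scale for these levels. The 9 liver miRNAs averaged 1544 to 241573 CPM, with miR-192-5p on top, and hepatocyte miR-122-5p measured 17376 and 17500 CPM in TAA-treated liver and 18285 and 21607 CPM in control liver. Among 7 miRNAs listed for muscle, miR-133a-3p averaged 3.43 CPM, and of the others none averaged over 0.24 CPM. Whether liver cells make miR-133a-3p was not tested. Among 8 miRNAs of embryonic stem cells, 5 had no reads in any library, while miR-295-3p averaged 2.58 CPM. miR-128-3p, miR-137-3p and miR-219a-5p were above every muscle and stem cell miRNA listed in mean CPM. This did not hold for the 4 pancreatic miRNAs. miR-375-3p averaged 32.8 CPM, below miR-128-3p but above miR-137-3p and miR-219a-5p. It measured 103 CPM in control 1, and 10.2 (TAA 1), 9.38 (TAA 2) and 8.47 CPM (control 2) elsewhere. The other pancreatic miRNAs listed averaged at most 0.80 CPM. miR-138-5p and miR-9-5p were below miR-133a-3p and miR-295-3p. In bulk tissue, a low level in many cells cannot be told apart from a high level in few, and the cells that carried these miRNAs were not identified.

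**Figure D2:**
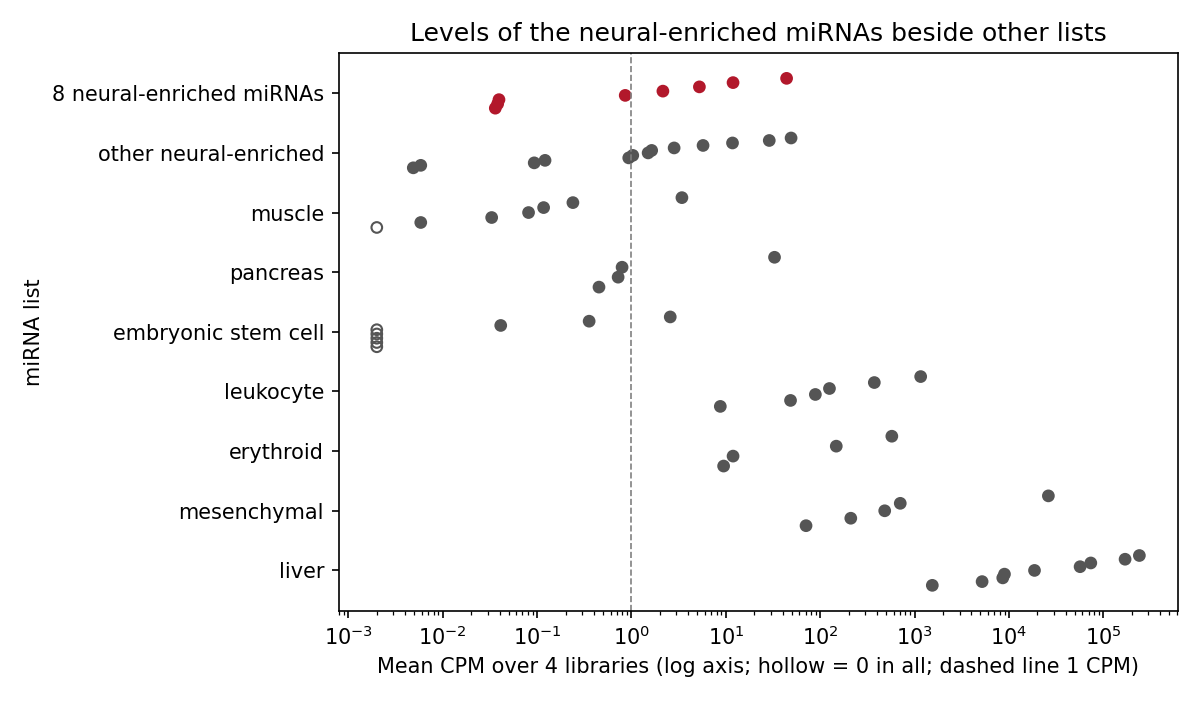
Mean CPM over the 4 libraries (log axis) of each miRNA in the neural-enriched set and in 8 other lists; hollow points had 0 counts in all libraries and the dashed line is 1 CPM. The neural-enriched set runs from 0.036 to 44.1 CPM, below all 9 liver miRNAs, of which the lowest averaged 1544 CPM.

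Of 13 other neural-enriched miRNAs, 6 reached 1 CPM in every library. miR-338-3p, known from oligodendrocytes, was the most abundant at 46.5 and 41.8 CPM in TAA-treated liver and 49.4 and 59.1 CPM in control liver. miR-7b-5p and miR-135a-5p had 1 read each over all libraries.

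The hairpins that can give each miRNA differ in number and place. miR-137-3p and miR-153-3p each have 1 hairpin. Mir137 lies at chr3:118433857-118433929 (GRCm38, + strand) in an exon of the transcript gene Gm26871, and Mir153 at chr12:117250817-117250885 (+ strand) in an intron of Ptprn2, which encodes a protein of secretory granules. miR-128-3p, miR-138-5p and miR-219a-5p come from 2 hairpins each, and miR-9 and miR-124 from 3 each. Where a mature sequence is shared, its reads do not say which hairpin made them, but the other arm of each hairpin can differ.

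For miR-128, the 5p arms of the hairpins differ in sequence and are shown without seed capitals.
miR-128-1-5p: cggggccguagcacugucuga
miR-128-2-5p: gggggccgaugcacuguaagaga
Mir128-1 lies at chr1:128202361-128202430 (+ strand), in an intron of R3hdm1, a gene for an R3H domain protein. Mir128-2 lies at chr9:112118636-112118711 (- strand), in an intron of Arpp21, which encodes a cAMP-regulated phosphoprotein abundant in striatal neurons. miR-128-1-5p had 37 and 57 reads in TAA-treated liver and 48 and 42 in control liver. miR-128-2-5p had 0 reads in all 4 libraries, where the 95% Clopper-Pearson intervals reached 0.075 (TAA 2) to 0.087 unscaled CPM (control 1). Of the arms that tell the hairpins apart, only the one from the R3hdm1 intron was therefore detected in these 4 libraries. The share of miR-128-3p made from each hairpin was not measured. miR-128-3p outnumbered miR-128-1-5p by 47.8 and 43.9 to 1 in TAA-treated liver and by 40.0 and 44.0 to 1 in control liver.

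For miR-219a, the 3p arm of Mir219a-1 was read more often than the shared 5p arm in 3 of the 4 libraries.
miR-219a-1-3p: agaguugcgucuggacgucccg
Mir219a-1 lies at chr17:34024983-34025092 (- strand) and Mir219a-2 at chr2:29845631-29845727 (- strand), both outside annotated genes on their strand. miR-219a-1-3p had 353 and 391 reads in TAA-treated liver and 235 and 240 in control liver. miR-219a-2-3p, an arm known to be abundant in oligodendrocytes, had 0 reads in all 4 libraries. Each hairpin is overlapped on the opposite strand by another miRNA gene, Mir219c and Mir219b. Their 4 mature rows held 0 to 16 reads per library, and reads set aside as ambiguous came to 873 to 1068 per library over all miRNAs. The strand setting of the counting is not known from the labels, so reads of these overlapping arms may not be fully told apart. How reads of the 5p arm, which match 2 hairpins, were counted is also not known. Its count beside that of the 3p arm is therefore uncertain.

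**Figure D3:**
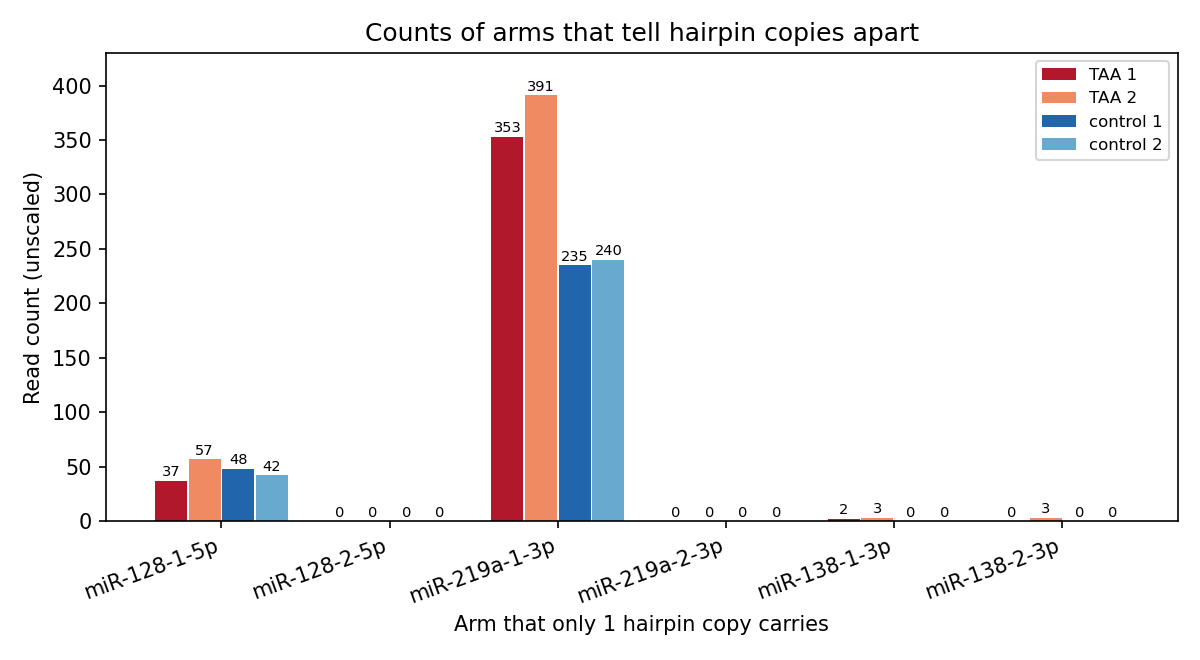
Unscaled read counts in each library of the 6 arms that a single hairpin copy carries, for miR-128, miR-219a and miR-138. The arms of Mir128-1 and Mir219a-1 were read in all 4 libraries, at 37 to 57 and 235 to 391 reads, while those of Mir128-2 and Mir219a-2 had 0 in all.

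Rows named for an arm of a second hairpin copy were not always 0. Of 31 such rows, 17 had reads in at least 1 library and 14 had none. Of 29 rows named for an arm of a first copy, 24 had reads and 5 had none. The median summed counts were 21 for second-copy rows and 184 for first-copy rows. This check was chosen after the counts were seen. Why miR-128-2-5p and miR-219a-2-3p had 0 reads was not tested, and no RefSeq sequence was matched for miR-219a-2-3p. For miR-138, the arms did not tell the copies apart. miR-138-1-3p had 2 and 3 reads and miR-138-2-3p 0 and 3 reads in the TAA libraries, and neither had any in the controls. Mir138-1 lies at chr9:122682876-122682974 (+ strand) in an exon of the pseudogene Gm47135, and Mir138-2 at chr8:94324311-94324381 (+ strand) in an exon of the non-coding gene C78859.

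Among the other hairpins, 1 arm dominated. miR-137-3p was read 2147 times over the 4 libraries and miR-137-5p 17 times. miR-9-5p had 157 reads and miR-9-3p 7, a ratio of 22.4 to 1. miR-124-5p and miR-153-5p, the other arms of the remaining trace miRNAs, had 0 reads in every library. The 3 miR-9 hairpins lie at chr3:88215598-88215686, chr13:83738814-83738885 and chr7:79505264-79505353, all on the + strand and inside non-coding genes (Gm3764, C130071C03Rik and Mir9-3hg). The arms of miR-9 are the same in all 3 hairpins, so they could not be assigned. The hairpin on chr3 is also overlapped on the opposite strand by the annotated miRNA gene Gm25641, and the strand setting is not known.

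TAA-treated liver was compared with control liver to ask which miRNAs change in this fibrosis model. Low counts kept miR-124-3p, miR-9-3p and miR-153-3p out of the test, and none of the other 5 passed it. Of all 644 miRNAs tested, 107 passed, which is 16.6%. 90 of these were higher in TAA-treated liver, 14.0% of those tested. At an unadjusted p under 0.05 the count was also 0 of 5, beside 165 of the 644 (25.6%). DESeq2 gave 0 of 5, beside 100 of the 644 (15.5%), and limma-voom 0 of 5, beside 106 (16.5%). Here and below, an adjusted p is that of edgeR's quasi-likelihood test, adjusted by Benjamini and Hochberg's method over the 644, and passing means an adjusted p under 0.05.

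miR-128-3p averaged 43.9 ± 7.01 CPM in TAA-treated liver and 44.3 ± 1.49 CPM in control liver (SD, n = 2 each; edgeR adjusted p = 0.972). Its fold change was 0.99, with a 95% interval of 0.753 to 1.30, the narrowest of the 5. A change of 2-fold in either direction lies outside that interval.

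miR-137-3p averaged 10.8 ± 2.16 CPM in TAA-treated liver and 13.1 ± 0.51 CPM in control liver (SD, n = 2 each; edgeR adjusted p = 0.452). The fold change was 0.822 with a 95% interval of 0.592 to 1.14. For miR-219a-5p the means were 4.76 ± 0.056 CPM in TAA-treated liver and 5.74 ± 1.37 CPM in control liver, a fold change of 0.828 with an interval of 0.576 to 1.19. For miR-138-5p they were 1.92 ± 0.21 CPM in TAA-treated liver and 2.39 ± 0.27 CPM in control liver, a fold change of 0.804 with an interval of 0.541 to 1.195. These 3 intervals include no change and exclude a fall to below 0.5 of the control level. miR-9-5p averaged 0.79 ± 0.37 CPM in TAA-treated liver and 0.93 ± 0.28 CPM in control liver. Its fold change was 0.857 with an interval of 0.413 to 1.78, so a fall by that much could not be told from no change.

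All 5 log2 fold changes were negative, from -0.31 to -0.01 with a median of -0.27, beside a median of 0.00 over all miRNAs tested, of which 323 of 644 were negative. The sign of miR-128-3p turned with library size alone, among miRNAs with a mean of at least 10 CPM and without control 1 or TAA 1, and that of miR-9-5p without control 2 or TAA 1. CPM of the groups did not overlap in 2 of the 5, miR-137-3p and miR-138-5p, against 55.3% of all miRNAs tested, so this separation is no more frequent here than in the table at large.

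**Figure D4:**
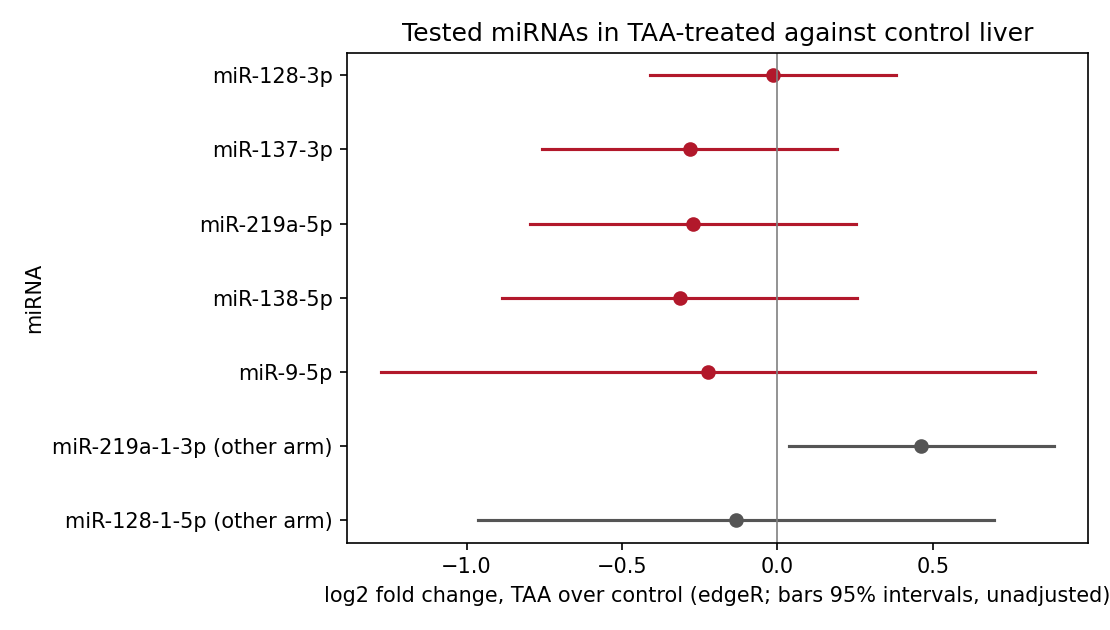
log2 fold change of TAA-treated over control liver with its 95% interval (edgeR, not adjusted for multiple tests) for the 5 neural-enriched miRNAs tested, in red, and 2 arms of their hairpins, in grey. All 5 intervals of the set include 0; that of miR-219a-1-3p, 0.04 to 0.89, does not, but its adjusted p was 0.159.

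miR-219a-1-3p measured 7.77 and 7.62 CPM in TAA-treated liver and 5.55 and 5.61 CPM in control liver, so that both TAA libraries were above both controls. Its log2 fold change was 0.46 (SE 0.18) with an unadjusted p of 0.037 and an edgeR adjusted p of 0.159, which did not pass. miR-219a-1-3p had 1.62 and 1.62 reads per read of miR-219a-5p in TAA-treated liver and 1.16 and 0.836 in control liver. Each TAA library thus had a higher ratio than either control, but the difference in the ratio was not tested. The size of the ratio also depends on how reads of the shared 5p arm were counted, which is not known. For miR-128-1-5p the log2 fold change was -0.13 (SE 0.36).

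Of the 13 other neural-enriched miRNAs, 9 could be tested. Of these 9, 3 passed as higher, beside 90 of all 644 miRNAs tested (14.0%), and 0 passed as lower. The median log2 fold change of the 9 was 0.40. They included miR-129-5p, miR-129-1-3p and miR-129-2-3p, which are arms of the same miRNA family and so not independent. miR-129-2-3p had 114 and 159 reads in TAA-treated liver and 12 and 5 in control liver, and its log2 fold change was 3.79 (SE 0.43; adjusted p = 0.000333 by edgeR). miR-129-5p measured 3.92 and 3.84 CPM in TAA-treated liver and 1.91 and 1.66 CPM in control liver (log2 fold change 1.12, SE 0.22). miR-212-3p measured 6.78 and 7.60 CPM in TAA-treated liver and 3.78 and 4.80 CPM in control liver (log2 fold change 0.75, SE 0.21). Without TAA 1, and without TAA 2, only miR-129-2-3p of these 3 passed, and miR-212-3p also did not pass without control 1, with upper-quartile factors (edgeR adjusted p = 0.135) or with RLE factors (0.0512). Whether these differ from the 8 in their response was not tested.

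The miRNAs nearest to each neural-enriched miRNA in level and pattern were found by Euclidean distance of log2(CPM + 0.5) over the 4 libraries. miR-185-5p and miR-674-3p were nearest to miR-128-3p (distances 0.31 and 0.33), and miR-3082-3p and let-7g-3p to miR-137-3p (0.27 and 0.31). miR-7068-3p and miR-330-3p were nearest to miR-219a-5p (0.26 and 0.30), and miR-29b-1-5p and miR-374b-3p to miR-138-5p (0.29 and 0.31). With 4 libraries such a likeness rests mainly on the level.

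The libraries differed in the levels of listed miRNAs that are known from other cell types, while cell content itself was not measured. The summed CPM of 6 leukocyte miRNAs was 2377 and 1971 in TAA-treated liver and 1150 and 1736 in control liver, with 2 of 6 passing as higher (6 without control 2, 1 without TAA 1 or without TAA 2, 5 with library size alone, with no filter or with the crossed block, 3 with DESeq2, and 1 of the 5 with a mean of at least 10 CPM). The summed CPM of 4 erythroid miRNAs was 530 and 1926 in TAA-treated liver and 325 and 196 in control liver, with 4 of 4 passing as higher (0 without TAA 2, 0 with DESeq2, 1 with limma-voom, and 0 of the 3 with a mean of at least 10 CPM). The summed CPM of 5 mesenchymal miRNAs was 31605 and 23348 in TAA-treated liver and 27759 and 28077 in control liver, with 1 of 5 passing as higher (2 without control 1, 0 without each of the others, with 1 passing as lower without control 2; 0 with upper-quartile factors or the filter at 10 CPM; 2 with library size alone, no filter or either block). Most of the mesenchymal sum was miR-143-3p, at 29773 and 21931 CPM in TAA-treated liver and 26276 and 26924 CPM in control liver. The mesenchymal miRNAs did not move together. Their log2 fold changes were -0.04 (miR-143-3p), -0.41 (miR-145a-5p), 0.26 (miR-199a-5p), 0.51 (miR-199a-3p) and 0.65 (miR-214-3p). Control 1 stood apart in the 4 pancreatic miRNAs, at 110.6 summed CPM, against 10.6 (TAA 1), 9.49 (TAA 2) and 8.51 (control 2), with miR-375-3p alone at 103 CPM. 0 of the 2 tested pancreatic miRNAs, 0 of 2 muscle, 0 of 2 stem cell and 0 of 9 liver miRNAs passed. Without control 1, 4 of 9 liver and 1 of 2 muscle miRNAs passed as lower. Without control 2, 1 of 2 stem cell miRNAs and 4 of 4 pancreatic miRNAs, of which more then entered the test, passed as lower; all 4 pancreatic miRNAs also did with no filter on low counts. 1 pancreatic miRNA passed as lower with library size alone, with upper-quartile factors and with the replicate block. 1 liver miRNA did so with upper-quartile factors, with no filter and with the crossed block, and 1 stem cell miRNA with upper-quartile factors. In control 1, miR-128-3p, miR-137-3p, miR-219a-5p and miR-9-5p lay within the range of the other libraries, miR-138-5p was the highest of the 4, and without control 1 still 0 of 5 passed. The part of these cell types in the levels of the 8 miRNAs was not tested.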

How the data were processed

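Each library has its own deposited file of read counts, unnormalized, by mature miRNA. Per the labels' protocols, total RNA (miRNeasy) went into TruSeq small RNA libraries. The submitters' processing notes name Bowtie, HTSeq and mm10. Not given in the sources used here are versions, trimming, annotation release, strand setting and the handling of reads that match several hairpins. The row for non-unique alignments holds 0 in all 4 files, so counts of miR-9, miR-124, miR-128-3p, miR-138-5p and miR-219a-5p, which have several hairpins, are uncertain. Counts of miR-9-5p, miR-128-3p, miR-138-5p and miR-219a-5p were not whole multiples of their number of hairpins in at least 1 of 4 libraries each.

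Each file has 5 summary rows, kept out of library sizes: reads outside annotated miRNAs were 22.8% to 26.4% of reads and unaligned reads 7.11% to 8.49%. Between 42.6 and 48.9 counts make 1 unscaled CPM. Chi-square per degree of freedom between replicates was 324 (TAA) and 237 (control), above sampling noise.

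The 4 libraries were grouped by title and fitted with edgeR 4.0.16 in R 4.3.3 (filterByExpr, TMM, quasi-likelihood F test, threshold 0.05). Fold change intervals use its moderated degrees of freedom and a standard error derived from the log2 fold change and the F statistic. DESeq2 1.42.0, limma 3.58.1, other scalings, filters, a replicate block and leaving out each library were alternatives. The edgeR procedure was tested on simulated data. The members and lists were chosen with earlier results of these data known. All 8 miRNAs and their other arms are named; of each list, the most abundant and up to 4 that passed; further, the 2 nearest miRNAs of each member with a mean of at least 1 CPM, and any with the same seed. Sequences came from RefSeq (GRCm38.p6) and hairpins from GENCODE on GRCm38, which is mm10.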

Additional observations from a re-analysis of the deposited data

How the results depend on the processing

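None of the 5 tested miRNAs passed in any alternative in which it could be fitted. miR-137-3p, miR-138-5p and miR-219a-5p kept their sign in all of theirs, although the log2 fold change of miR-219a-5p was -0.012 without control 2. The sign of miR-128-3p turned in 4 of 13 alternatives and that of miR-9-5p in 2 of 12. The log2 fold change of miR-128-3p was 0.11 with library size alone, 0.065 among miRNAs with a mean of 10 CPM or more, 0.00094 without control 1, 0.14 without TAA 1 and -0.18 without TAA 2. That of miR-9-5p was 0.11 without control 2 and 0.18 without TAA 1, and -0.80 without TAA 2. Library size alone moved the median of all miRNAs to 0.12 and upper-quartile factors moved it to -0.17. With upper-quartile factors, 83 were higher and 32 lower in TAA-treated liver, against 90 and 17 with TMM. The count of all miRNAs that passed was 27 among those with a mean of 10 CPM or more, where 273 were tested, and 49 to 131 when 1 library was left out, with 54 without TAA 1 and 49 without TAA 2. A lone library left in a group is assumed to vary like the other group. With the replicate block 110 of 644 passed, 0 of them among the 5. The correlation of same-numbered libraries' deviations was -0.13; with the numbers crossed, chosen after the data were seen, 115 passed. The number of the 8 at a threshold in every library was 4 at 1 CPM, 1 at 10 CPM and 5 at 0.5 CPM. With no filter on low counts, 0 of the 8 passed. Depth limits miR-124-3p, miR-9-3p and miR-153-3p, for which no difference was detectable.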
